A study of Mus musculus with 12 samples.

Results

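Hearts of Pde10a knockout mice given doxorubicin were compared with hearts of wild-type mice given the same drug, across all genes that passed a filter on low counts. The comparison used the 6 libraries labelled knockout (KO) or wild type (WT) and doxorubicin (DOX), of 12 libraries in the series. The deposited values are the numbers of sequencing reads from messenger RNA assigned to each gene. All mice were C57BL/6J. The KO DOX group held mice 18, 19 and 20 with the genotype PDE10A Knockout, and the WT DOX group held mice 21, 22 and 24 with the genotype PDE10A WT. Both groups received DOX at 15 mg/kg as 1 bolus, and the protocols give 7 days for this treatment. The other 6 libraries, 3 KO vehicle and 3 WT vehicle mice, are used here to set the DOX comparison beside the same genotypes without the drug. The protocols also describe pretreatment with the PDE10A inhibitor TP-10 or its vehicle, and no library is labelled with the inhibitor. The sources used here do not say which exons the knockout allele lacks or whether the gene was removed in the whole body.

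PDE10A is a phosphodiesterase, an enzyme that hydrolyses the signalling nucleotides cAMP and cGMP. In heart cells cAMP drives protein kinase A, which changes calcium handling and contraction and which, in the nucleus, activates the transcription factor CREB and its early target genes. DOX is an anthracycline cancer drug that poisons type II topoisomerases, breaks DNA, activates p53 and injures heart muscle.

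Library totals ran from 23846398 counts (KO DOX mouse 18) to 32921876 counts (WT DOX mouse 24). Levels are given as CPM (counts scaled to a common library size), computed with library sizes scaled for composition. The heart muscle myosin gene Myh6 stood between 18518 and 23038 CPM in the 6 DOX libraries, which are labelled heart. The DOX libraries did not fall cleanly by genotype. A chi-square of the counts per gene was 17.6 between WT DOX mouse 21 and KO DOX mouse 20, and 71.4 and 74.1 between WT DOX mouse 21 and WT DOX mice 22 and 24. KO DOX mouse 18 was the highest of the 6 in a summed list of atrial and conduction transcripts, at 2910 CPM against 913.83 to 1927.2 CPM in the other 5. Titles of 5 of the 6 libraries carry the suffix 1, and that of WT DOX mouse 21 does not. The sources used here do not explain the suffix. KO DOX mice 19 and 20 lay between the genotypes at some genes and with KO at others. Whether their genotype labels hold was not tested. At Atp6v0c-ps2, a pseudogene that separated KO from WT in all libraries, mice 19 and 20 stood at 11.9 and 12.2 CPM. KO DOX mouse 18 and the KO vehicle mice were at 19.9 to 23.5 CPM there, and WT was at most at 0.144 CPM. Gm9825 and Atp6v0c showed the same intermediate position. The same mice lay with the other KO libraries at Pde10a (8.49 and 9.09 CPM) and Tmem181a (2.23 and 2.43 CPM). They also did at Tmem181c-ps (2.23 and 2.04 CPM) and Wdfy1 (26.1 and 25.0 CPM). The cause was not tested. Every KO DOX value rests on these mice, so the results without them are given beside the count of genes.

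Of 14757 genes tested, 59 (0.400%) differed between KO DOX and WT DOX at a Benjamini-Hochberg adjusted p below 0.05 in edgeR's quasi-likelihood test. Of these, 27 (0.183%) were higher in the libraries labelled KO and 32 (0.217%) were lower. The higher genes had a median log2 fold change of 1.08 and the lower genes of -1.13. The median absolute log2 fold change of all genes tested was 0.175. In all 59, every KO library lay on the same side of every WT library, a separation that 19.6% of all genes tested also showed. The genes nearest inside the threshold were Ifitm1, S100a9 and Wscd1 (each at an adjusted p of 0.0475), and those nearest outside it were Adamts1 (0.0521), Mbd1 (0.0524) and Paqr7 (0.0524). The count of 59 rests on which libraries enter. Leaving out KO DOX mouse 18, 19 or 20 gave 27, 16 or 8 genes. Leaving out WT DOX mouse 22 gave 11, and leaving out WT DOX mouse 21 gave 732. It was 21 to 25 when any KO vehicle library was left out, 29 without WT vehicle mouse 3 and 94 without WT vehicle mouse 2. With only the 6 DOX libraries in the fit it was 6. Without both KO DOX mice 19 and 20, which leaves 1 KO DOX library assumed to vary like the other groups, it was 24, of which 8 were among the 59. Hlf and Rsph3b were called in that fit (adjusted p 0.0469 and 0.0225), while Pde10a (0.171), Tmem181a (0.0517), Cdkn1a (0.201), Nr4a1 (0.269), Nr4a3 (0.241), S100a8 (0.201) and S100a9 (0.269) kept their direction and lost their call. Adding the title suffix to the model gave 57 genes, 34 higher and 23 lower, of which 42 were among the 59. DESeq2 called 473 genes, limma-voom called 990, and 2257 genes had an unadjusted p below 0.05 in edgeR's test. For most lists, the members at that unadjusted p and those called by DESeq2 are given as well. Those list counts are to be read beside the 2257 and 473 of all 14757 genes. All 59 kept their sign in these fits, and 8 of them kept their call whichever of the 12 libraries was left out: Atp6v0c-ps2, Wdfy1, Gm36684, Tmem181c-ps, Tmem181a, Gm9825, Rsph3b and Gstt2. Each of the others lost its call in at least 1 of those fits.

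**Figure D1:**
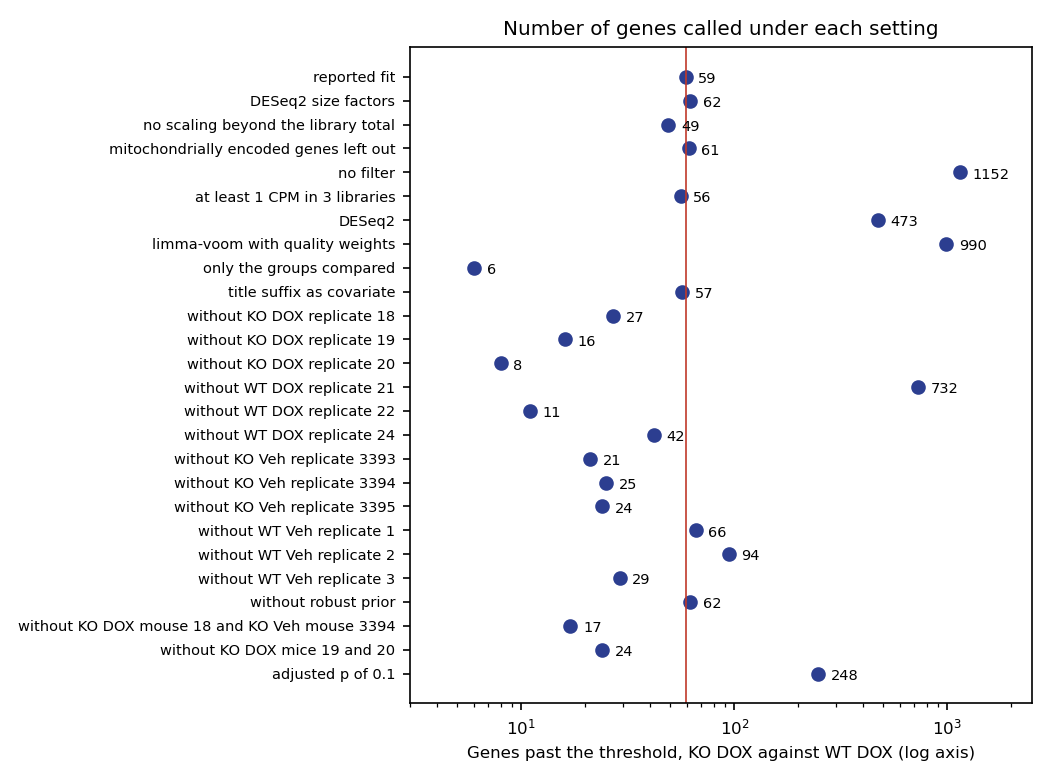
Number of genes past the threshold in KO DOX against WT DOX (log axis) under each setting, 1 point per setting, with the reported 59 as a vertical line. Leaving out WT DOX mouse 21 gave 732 and leaving out KO DOX mouse 20 gave 8.

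The targeted gene itself, on chromosome 17 (GENCODE M21 on GRCm38, 8525372 to 8986648), was higher in the libraries labelled KO. In the order of mice 18, 19 and 20 (KO) and 21, 22 and 24 (WT), which is kept below, Pde10a stood at 8.27, 8.49 and 9.09 CPM in KO DOX and 2.7, 2.08 and 1.79 CPM in WT DOX. No KO value overlapped a WT value. The log2 fold change was 1.98 ± 0.31 (SE), with an adjusted p of 0.0233. Under vehicle, Pde10a was at 9.31, 11.9 and 9.13 CPM in KO and 3.38, 1.00 and 1.86 CPM in WT. The transcript level therefore goes against what the label of a knockout would give, in both treatments, while separating the labelled genotypes without overlap. A count over the whole gene does not show which exons the reads came from. The call was lost without KO DOX mouse 19 (adjusted p 0.0700), KO DOX mouse 20 (0.106), WT DOX mouse 22 (0.102) or WT DOX mouse 24 (0.0695), with a log2 fold change between 1.85 and 2.16 over all fits that left out 1 library.

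Other phosphodiesterases did not pass edgeR's test. Of 19 tested genes of this family, Pde10a was the only one called. At an unadjusted p below 0.05 in that test there were 3, and DESeq2 called 2, Pde10a included. Under vehicle 2 of the 19 were called higher in KO, Pde10a included, against 2.18% of all genes. Pde1c, a calcium-dependent isoform, had a log2 fold change of 0.15 (adjusted p 0.642). Pde3a, which limits cAMP near the calcium pump, stood at 82.1, 118 and 83.8 CPM in KO DOX and 87.8, 149 and 89.6 CPM in WT DOX, with overlapping groups and a log2 fold change of -0.20 (0.693). The cGMP-specific Pde5a was at 0.25 (0.560), and Pde2a was at 0.23 with fewer than 0.7 CPM in every DOX library (0.895). None of 34 tested genes of cAMP and protein kinase A signalling was called. At an unadjusted p below 0.05 there were 8, and DESeq2 called 1. Nearest were the beta-1 adrenergic receptor Adrb1, at 13.9, 15.4 and 15.1 CPM in KO DOX and 10.8, 8.77 and 9.13 CPM in WT DOX (log2 fold change 0.63, adjusted p 0.0722), and the kinase inhibitor Pkia (0.41, 0.162). Of 13 tested genes of natriuretic peptide and cGMP signalling none was called or reached an unadjusted p below 0.05 in edgeR's test, and DESeq2 called 0, with Gucy1b1, a subunit of soluble guanylyl cyclase, at 0.25 (0.418) and the peptide-processing protease Furin at -0.38 (0.351).

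**Figure D2:**
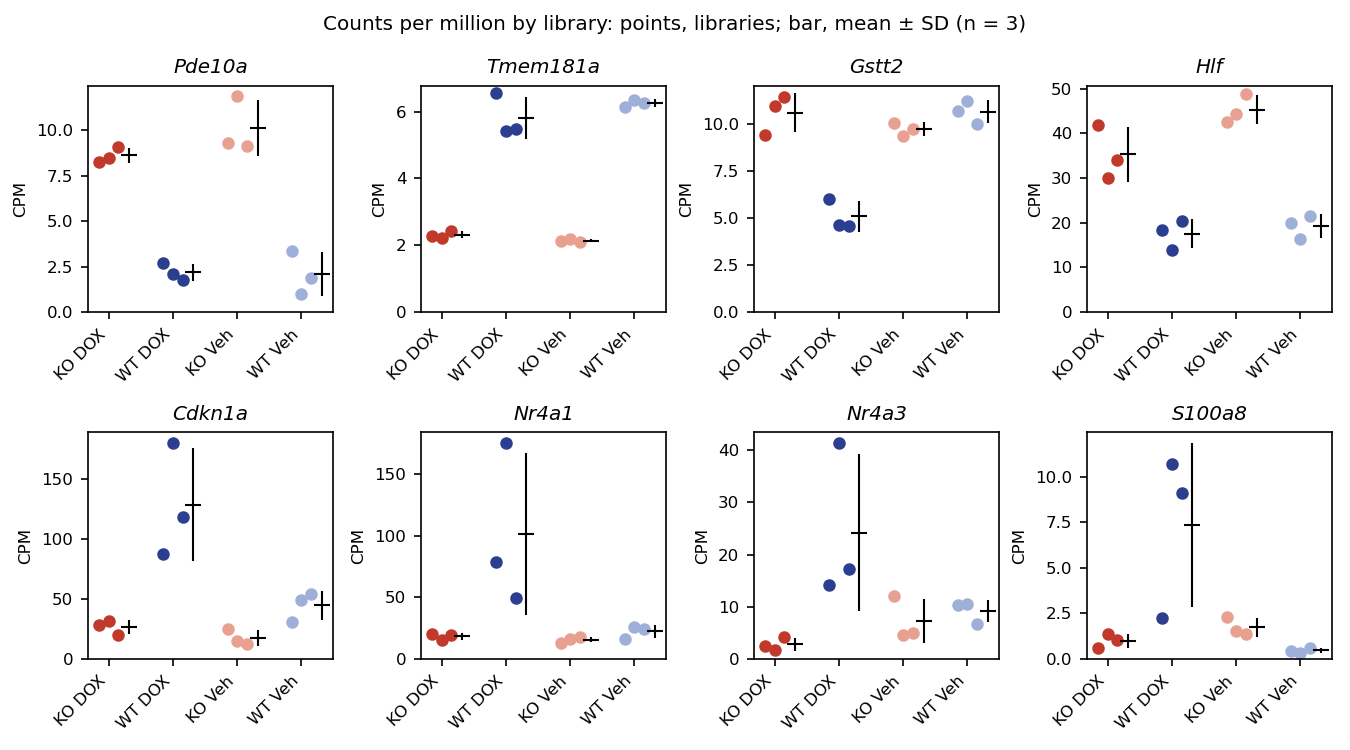
CPM of 8 genes in each library, by genotype and treatment, with the mean and SD of 3 mice beside the points. Pde10a, Tmem181a and Hlf separate KO from WT in both treatments, and in Cdkn1a, Nr4a1 and Nr4a3 the WT DOX libraries lie highest. In S100a8, WT DOX mice 22 and 24 lie highest. WT DOX mouse 21, at 2.23 CPM of S100a8, lies just below the highest KO vehicle library, at 2.32 CPM.

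Several called genes lie near Pde10a. Of 52 tested genes within 5 Mb of it, 3 were called, against 0.400% of all genes. Of the 52, 19 had an unadjusted p below 0.05 in edgeR's test and DESeq2 called 7. Tmem181a, a transmembrane protein gene, stood at 2.28, 2.23 and 2.43 CPM in KO DOX and 6.54, 5.42 and 5.47 CPM in WT DOX, with a log2 fold change of -1.33 ± 0.14 (SE) and an adjusted p of 0.00109. Its pseudogene Tmem181c-ps had between 2.04 and 2.23 CPM in the KO DOX libraries and no count in any WT library. With a limit of 3 counts in each WT DOX library, Tmem181c-ps was at least 21.2-fold higher in KO DOX. Summed over Tmem181a, Tmem181b-ps and Tmem181c-ps, near-identical copies on the same chromosome, KO DOX had 10.8 ± 0.204 CPM (SD, n = 3) and WT DOX 9.19 ± 1.14 CPM (SD, n = 3). The sources used here do not say how reads that match several copies were counted, so the split between copies is uncertain. Rsph3b, a radial spoke protein gene of cilia, was at 5.91, 7.76 and 7.55 CPM in KO DOX and 14.3, 15.7 and 15.3 CPM in WT DOX (log2 fold change -1.09, adjusted p 0.00321), while its paralog Rsph3a overlapped between the groups at 5.09 to 6.33 and 5.97 to 7.66 CPM. The single-gene differences were also present under vehicle, where the sums of the Tmem181 copies overlapped at 10.2 to 11.1 CPM in KO and 9.22 to 11.4 CPM in WT. Tmem181a had a log2 fold change of -1.55 there (adjusted p 0.000229) and Rsph3b of -0.81 (0.0127).

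Chromosome 17 held 10 of the 57 called genes that could be placed (17.5%) and 4.82% of the placed genes tested. Besides Pde10a and its 3 neighbours these were Zfp983, Zfp760 and 9530082P21Rik, which were higher in KO, and, farther along, Cdkn1a and Capn11, which were lower, and Cdc42ep3, which was higher. The zinc finger genes Zfp983 and Zfp760 stood at 6.50, 4.28 and 4.12 CPM and at 6.46, 4.72 and 4.78 CPM in KO DOX, and at 1.99 to 2.19 and 2.51 to 3.06 CPM in WT DOX. Their log2 fold changes were 1.23 (adjusted p 0.0352) and 0.92 (0.0456). Without WT DOX mouse 22 the adjusted p was 0.119 for Zfp983 and 0.162 for Zfp760.

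**Figure D3:**
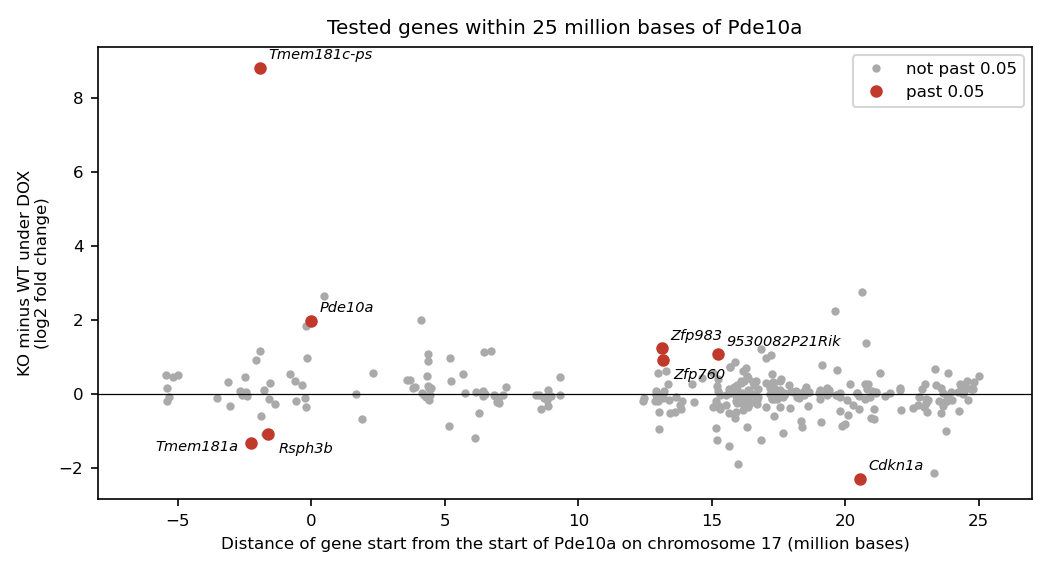
Log2 fold change of KO DOX against WT DOX for each tested gene near the start of Pde10a on chromosome 17, by distance in Mb, with called genes in red. Tmem181a and Rsph3b lie below 0 and Tmem181c-ps, whose WT libraries held no count, lies highest.

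Nr4a1 and Nr4a3, early response genes, were lower in KO DOX. The list of CREB targets and immediate early genes had 30 tested members, of which these 2 were called. Its median log2 fold change was -0.57, against 0.01 for all genes tested, and 11 of the 30 had every KO library below every WT library, against 9.75% of all genes. Of the 30, 14 had an unadjusted p below 0.05 in edgeR's test and DESeq2 called 7. Without WT DOX mouse 22 the median was -0.29. Under vehicle the list's median was -0.42. Nr4a1, an orphan nuclear receptor rapidly induced by cAMP and stress, stood at 20.1, 15.3 and 19 CPM in KO DOX and at 78.5, 176 and 49.5 CPM in WT DOX. The WT libraries spread widely and WT DOX mouse 22 was far above the others, but none reached down to the KO range. The log2 fold change was -2.48 ± 0.40 (SE), with an adjusted p of 0.0352 that rose to 0.159 without KO DOX mouse 20. Nr4a3, a receptor of the same family, was at 2.44, 1.65 and 4.16 CPM in KO DOX and 14.1, 41.4 and 17.2 CPM in WT DOX, a log2 fold change of -3.14 ± 0.54 (SE) and an adjusted p of 0.0389 (0.135 without KO DOX mouse 19). The vehicle groups stood at 13.1 to 17.3 CPM in KO and 16.1 to 26.1 CPM in WT for Nr4a1, and at 4.64 to 12.0 and 6.67 to 10.5 CPM for Nr4a3. Both genes thus overlapped between the genotypes without DOX, and a difference between the genotypes' DOX responses did not pass the test (edgeR's interaction test, adjusted p 0.178 for Nr4a1 and 0.148 for Nr4a3).

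Sequences before RefSeq starts of these genes are shown because CREB binds the cAMP response element TGACGTCA and its shorter core TGACG, which is contained in it. Windows of the 250 bases before a RefSeq start (GRCm38.p6) were matched by symbol and searched on both strands. Only windows with a match are shown, so a window of the same gene without a match would not appear. Nr4a1 (chr15:101266596-101266845, plus strand) and Nr4a3 (chr4:48045055-48045304, plus strand) each held the 5 letters of the core 4 times and the full element not at all. Ell2 (chr13:75707234-75707483, plus strand), an elongation factor gene that was lower in KO, and Hlf (chr11:90390918-90391167, minus strand), a clock output gene that was higher, each held the full element. The windows of Nr4a1 and Ell2 lie inside the gene spans of GENCODE M21, which start at 101254269 and 75706757. That of Nr4a3 crosses the GENCODE start at 48045153. Capitals mark the core on either strand in Nr4a1 and Nr4a3 and the full element in Ell2 and Hlf.
Nr4a1: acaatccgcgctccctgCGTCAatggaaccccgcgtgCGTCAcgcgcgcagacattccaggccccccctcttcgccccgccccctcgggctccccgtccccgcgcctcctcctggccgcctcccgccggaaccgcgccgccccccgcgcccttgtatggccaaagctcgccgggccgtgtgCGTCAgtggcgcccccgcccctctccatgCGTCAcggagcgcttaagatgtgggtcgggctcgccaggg
Nr4a3: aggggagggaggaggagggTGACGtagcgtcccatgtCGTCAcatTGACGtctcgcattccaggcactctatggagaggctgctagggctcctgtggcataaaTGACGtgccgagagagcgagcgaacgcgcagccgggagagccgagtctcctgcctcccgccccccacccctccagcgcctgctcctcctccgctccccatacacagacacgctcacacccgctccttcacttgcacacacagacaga
Ell2: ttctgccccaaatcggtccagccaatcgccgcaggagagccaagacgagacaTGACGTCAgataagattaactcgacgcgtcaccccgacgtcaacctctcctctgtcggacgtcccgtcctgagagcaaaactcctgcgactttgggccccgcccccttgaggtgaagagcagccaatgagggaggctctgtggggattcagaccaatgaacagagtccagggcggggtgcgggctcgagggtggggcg
Hlf: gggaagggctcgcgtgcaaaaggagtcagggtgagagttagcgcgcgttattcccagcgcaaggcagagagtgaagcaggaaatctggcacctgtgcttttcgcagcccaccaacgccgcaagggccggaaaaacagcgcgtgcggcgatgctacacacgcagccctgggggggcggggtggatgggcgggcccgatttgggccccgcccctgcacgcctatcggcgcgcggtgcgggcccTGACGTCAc

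The core TGACG was present in 11 of 29 windows of the called lower genes (26 genes matched), in 4 of 24 windows of the called higher genes (19 genes matched) and in 17.8% of all 32851 windows. Windows of 1 gene can overlap, so these shares are descriptions. The full element was present in 1 window of each called set and in 1.55% of all windows. A match of letters is not a binding site.

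Among DNA damage genes, Cdkn1a was lower in KO DOX. Cdkn1a (chromosome 17, 29090976 to 29100727, GRCm38) encodes the cell cycle inhibitor p21 and is induced by p53 and by glucocorticoids. It stood at 27.9, 31.4 and 19.8 CPM in KO DOX and at 87.4, 180 and 118 CPM in WT DOX. All WT libraries were far above all KO libraries. The log2 fold change was -2.28 ± 0.34 (SE), with an adjusted p of 0.0239, and the call was lost without any 1 of the KO DOX libraries or WT DOX mouse 22 (highest adjusted p 0.120, without KO DOX mouse 20). Under vehicle KO was at 24.7, 15.0 and 12.2 CPM and WT at 30.5, 49.3 and 53.6 CPM, a log2 fold change of -1.36 (adjusted p 0.0502), and the interaction was -0.93 (0.349).

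Most of the wider p53 list did not pass the test. Of its 44 tested members, Cdkn1a and the phosphatase gene Ptp4a3 were called lower, and the median log2 fold change was -0.13, or -0.09 without WT DOX mouse 22. Of the 44, 14 had an unadjusted p below 0.05 in edgeR's test and DESeq2 called 6. Ptp4a3 stood at 224, 256 and 233 CPM in KO DOX and 334, 470 and 353 CPM in WT DOX (log2 fold change -0.70, adjusted p 0.0475, and 0.223 without KO DOX mouse 20). Mdm2, the ubiquitin ligase that p53 induces and that degrades it, was between 50.4 and 58.5 CPM in all 6 libraries, with overlap and a log2 fold change of 0.07 (0.727). None of 43 tested DNA repair and damage signalling genes was called (median -0.00), 6 had an unadjusted p below 0.05 and DESeq2 called 0, with the excision repair nuclease gene Ercc1 at -0.38 (0.191) and the break sensor Mre11a at 0.26 (0.236). Top2b, the topoisomerase that DOX poisons in resting heart cells, had a log2 fold change of -0.00 (0.997), at 63.3 to 70.5 CPM in KO DOX and 62.1 to 71.5 CPM in WT DOX. Of 27 tested topoisomerase and anthracycline handling genes none was called, 4 had an unadjusted p below 0.05 and DESeq2 called 2. Top2a, the form of dividing cells, was at or below 0.591 CPM in every DOX library.

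Genes of cell division and death showed few differences. Of 38 tested cell cycle and proliferation genes none was called, 8 had an unadjusted p below 0.05 and DESeq2 called 1. Nearest were Cenpf, a kinetochore protein gene, at 16.0, 21.8 and 24.2 CPM in KO DOX against 9.92, 10.3 and 9.50 CPM in WT DOX (log2 fold change 1.06, adjusted p 0.119), and the replication helicase subunit Mcm2 (0.45, 0.180). The proliferation marker Mki67 stayed below 1 CPM in all 6 libraries. Of 38 tested apoptosis, necroptosis and pyroptosis genes, 1 was called: the executioner caspase gene Casp6, at 10.1, 8.05 and 9.86 CPM in KO DOX and 6.07, 5.32 and 6.25 CPM in WT DOX (log2 fold change 0.66, adjusted p 0.0389, and 0.215 without KO DOX mouse 20). The list's median was -0.01, 5 members had an unadjusted p below 0.05 in edgeR's test and DESeq2 called 3.

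Genes of oxidative and metabolic stress included 2 called members, both lower in KO. Nfe2l2, which encodes the antioxidant regulator NRF2, stood at 67.6, 65.8 and 70.4 CPM in KO DOX and 93.6, 138 and 105 CPM in WT DOX (log2 fold change -0.73, adjusted p 0.0352). Both vehicle groups together ran from 65.8 to 78.1 CPM, and the WT DOX values lay above that range. Nfe2l2 was the only called member of 40 tested NRF2 and antioxidant genes, whose median was -0.28, or -0.17 without WT DOX mouse 24. Of the 40, 16 had an unadjusted p below 0.05 in edgeR's test and DESeq2 called 5. In 7 of the 40 every KO library was below every WT library, against 9.75% of all genes. Nqo1, the standard NRF2 target, was at 36.6, 60.3 and 45.5 CPM in KO DOX and 53.5, 92.5 and 158 CPM in WT DOX, and the groups overlapped (log2 fold change -1.10, adjusted p 0.166). Slc3a2, the shared heavy chain of several amino acid transporters, including the cystine importer, was the only called member of 29 tested iron and ferroptosis genes, at 45.6, 39.9 and 41.5 CPM in KO DOX and 57.0, 98.6 and 82.0 CPM in WT DOX (-0.90, 0.0352). Of the 29, 13 had an unadjusted p below 0.05 in edgeR's test and DESeq2 called 6. Slc38a2, another amino acid transporter gene, which was chosen after its values were seen, was at 165, 151 and 150 CPM in KO DOX and 248, 381 and 325 CPM in WT DOX (-1.03, 0.0184). Without KO DOX mouse 20 the adjusted p was 0.159 for Nfe2l2, 0.159 for Slc3a2 and 0.106 for Slc38a2.

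No member of the lists for heat shock chaperones (26 tested), integrated stress and unfolded protein responses (34), autophagy and lysosome (35) or muscle atrophy (27) was called. In the same order, 4, 8, 8 and 12 had an unadjusted p below 0.05 in edgeR's test, and DESeq2 called 1, 3, 2 and 1. Over all 14757 genes tested these counts were 2257 and 473. In these lists the members with the smallest p included the small heat shock protein Hspb6 (log2 fold change -0.42, adjusted p 0.0833), the mTOR inhibitor Ddit4 (-1.16, 0.0854), the stress cytokine Gdf15 (-1.76, 0.0998), the autophagy receptor Sqstm1 (-1.02, 0.158), the proton pump subunit Atp6v1h (-0.50, 0.138), the metallothionein Mt1 (-1.23, 0.152) and the ubiquitin ligase Cblb (-0.58, 0.180).

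The list of glucocorticoid-induced genes had 1 called member of 27, Cdkn1a, which is also in the p53 list. Its median was -0.61, against 0.01 for all genes, and 11 of the 27 had every KO library below every WT library, against 9.75% of all genes. Of the 27, 16 had an unadjusted p below 0.05 in edgeR's test and DESeq2 called 10. Under vehicle the median was 0.19 and 5 of the 27 were called higher in KO, against 2.18% of all genes. Fkbp5, a chaperone gene that glucocorticoids induce, stood at 32.7, 63.1 and 27.9 CPM in KO DOX and 57.1, 76.7 and 92.0 CPM in WT DOX, with overlap (log2 fold change -0.87, adjusted p 0.299). Under vehicle Fkbp5 was at 92.2, 66.4 and 44.1 CPM in KO and 21.3, 12.8 and 26.2 CPM in WT (1.75, 0.0421). Pdk4, a switch from glucose to fat burning, was at 3243 CPM in WT DOX mouse 22, 412 in mouse 24 and 246 in mouse 21, and at 93.7 to 181 CPM in KO DOX (-3.11, 0.155). The summed level of this list was 1734.5 to 2030.1 CPM in KO DOX and 2237.2, 5569 and 2754.4 CPM in WT DOX mice 21, 22 and 24. WT DOX mouse 22 was the highest in it, and without that mouse the list's median was -0.45.

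Among circadian clock genes, which time daily cycles of transcription, 2 of 24 tested members were called and both were higher in KO DOX. Hlf, an output activator of the clock, stood at 41.9, 30.0 and 33.9 CPM in KO DOX and 18.3, 14.0 and 20.4 CPM in WT DOX. The log2 fold change was 1.00 ± 0.16 (SE), with an adjusted p of 0.0233 (0.106 without KO DOX mouse 20). Bhlhe41, a repressor in the clock loop, was at 25.9, 28.7 and 29.0 CPM in KO DOX and 13.6, 11.9 and 18.1 CPM in WT DOX (0.94, 0.0308, and 0.159 without KO DOX mouse 20). Every KO library was above every WT library for 9 of the 24 members and below for 4, against 9.86% and 9.75% of all genes. Of the 24, 15 had an unadjusted p below 0.05 in edgeR's test and DESeq2 called 10. Dbp, a further output activator, was at 107, 98.4 and 121 CPM in KO DOX and 48.6, 10.0 and 21.1 CPM in WT DOX (2.03, 0.0722). Arntl, the core activator BMAL1, was at 4.02, 8.27 and 3.12 CPM in KO DOX and 8.09, 15.7 and 9.70 CPM in WT DOX, with overlap (-1.11, 0.191). Under vehicle the Hlf difference was 1.23 (adjusted p 0.00232) and the Arntl difference -3.15 (0.00480), and 7 members were called higher and 2 lower, against 2.18% and 1.40% of all genes. The sources used here do not give the hour at which hearts were taken.

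S100a8 and S100a9, the paired calcium-binding proteins of neutrophil granules, were lower in KO DOX. Of 20 neutrophil markers, 11 passed the filter on low counts, and these 2 were called. S100a8 stood at 0.591, 1.35 and 1.00 CPM in KO DOX and 2.23, 10.7 and 9.10 CPM in WT DOX, a log2 fold change of -2.90 ± 0.51 (SE) and an adjusted p of 0.0352. S100a9 was at 1.58, 1.57 and 2.12 CPM in KO DOX and 3.27, 14.7 and 10.5 CPM in WT DOX, a log2 fold change of -2.43 ± 0.46 (SE) and an adjusted p of 0.0475. WT DOX mouse 21 was nearest to the KO range in both. For 8 of the 11 tested markers every KO library was below every WT library, against 9.75% of all genes. Of the 11, 9 had an unadjusted p below 0.05 in edgeR's test and DESeq2 called 6. The filter kept a marker that passed in any 3 of the 12 libraries, so a marker high in WT DOX alone could enter. The 8, the 9, the 6 and the list's median are therefore descriptions of the members kept. The summed level of all 20 markers was 12.9 to 20.1 CPM in KO DOX and 16.1, 115 and 58.6 CPM in WT DOX mice 21, 22 and 24, so the sums overlapped. Elane was at 0 in all 6 DOX libraries, and Stfa1 and Stfa2 were at 0 in the KO DOX libraries. The list's median was -2.16 in the tested members and lay between -2.53 and -1.97 in the fits that left out 1 library. The calls were lost without WT DOX mouse 22 (adjusted p 0.139 for S100a8 and 0.162 for S100a9) and without WT DOX mouse 24 (0.0735 and 0.0980), among others. Fewer neutrophils and less of these RNAs per neutrophil cannot be told apart in whole hearts.

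S100a8 and S100a9 were not lower in KO without DOX. Under vehicle S100a8 stood at 2.32, 1.51 and 1.37 CPM in KO and 0.445, 0.311 and 0.595 CPM in WT, and S100a9 at 4.26, 3.28 and 2.52 CPM in KO and 0.668, 0.691 and 1.31 CPM in WT. The log2 fold changes there were 1.95 (adjusted p 0.0725) and 1.91 (0.0551). In edgeR's interaction test, the genotype difference under DOX less that under vehicle was -4.84 for S100a8 (adjusted p 0.0280) and -4.35 for S100a9 (0.0274). This test called 47 genes, but 2 or 3 when any KO vehicle library was left out. Calls of single genes in those fits are not given.

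Other immune genes that were called included receptors and signals of leukocytes. Il4ra, a receptor chain for interleukins 4 and 13, stood at 13.6, 13.1 and 13.4 CPM in KO DOX and 24, 42.2 and 24.2 CPM in WT DOX (log2 fold change -1.17, adjusted p 0.0352, and 0.159 without KO DOX mouse 20). Ifitm1, an interferon-induced membrane protein gene, was at 1.89, 1.57 and 1.70 CPM in KO DOX and 2.59, 6.44 and 4.98 CPM in WT DOX (-1.44, 0.0475, and 0.214 without KO DOX mouse 20). Il16, a lymphocyte attractant gene, was higher in KO DOX, at 8.39, 6.95 and 7.67 against 4.06, 3.31 and 4.00 CPM (1.01, 0.0218, and 0.106 without KO DOX mouse 20). Flt3l, a growth factor gene for dendritic cells, was also higher, at 6.97, 7.87 and 6.82 against 4.42, 4.22 and 3.60 CPM (0.82, 0.0316, and 0.118 without KO DOX mouse 19). In each of these 4 the genotype difference under DOX differed from that under vehicle: the interaction was -1.62 for Il4ra (adjusted p 0.0424), -2.08 for Ifitm1 (0.0487), 1.43 for Il16 (0.0274) and 1.30 for Flt3l (0.0274). Ifi208, an interferon-inducible gene chosen after its values were seen, had 2 counts over the KO DOX libraries and 136 over the WT DOX libraries, which makes it 59.4-fold lower in KO with an exact 95% counting interval of 16.1 to 496. It had no count in the KO vehicle libraries and was at 1.31 to 1.86 CPM in the WT vehicle libraries.

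Lists for the remaining immune cells and signals had no called member. These were macrophage and monocyte markers (28 tested, median -0.30), lymphocyte markers (7, 0.70), MHC class II genes (8, 0.27), interferon response genes (49, -0.25) and cytokines, chemokines and acute phase genes (31, 0.13). In the same order, 5, 2, 0, 7 and 9 had an unadjusted p below 0.05, and DESeq2 called 2, 1, 0, 1 and 1. These medians moved when single libraries were left out. The filter ran anew in each such fit, so the members tested could change too. The macrophage median was -0.79 without KO DOX mouse 18, the interferon median -0.03 without WT DOX mouse 22, and the cytokine median -0.31 without KO DOX mouse 18. The lymphocyte median was 0.16 to 0.57 in the fits that left out 1 library, below the reported 0.70 in each. That shift is therefore not credited to single mice. The MHC class II median rested on WT DOX mouse 21. H2-Ab1, an antigen-presenting chain, was at 8.04, 4.98 and 7.32 CPM in KO DOX, 14.0 CPM in WT DOX mouse 21 and 1.57 and 1.18 CPM in WT DOX mice 22 and 24 (log2 fold change 0.29, adjusted p 0.900). Without WT DOX mouse 21 the list's median was 2.19, and without WT DOX mouse 24 it was -0.22. Chil3, a product of alternatively activated macrophages, showed a reversed split of the WT DOX mice, at 1.15 CPM in mouse 21 and 13.1 and 9.30 CPM in mice 22 and 24, against 0.366 to 0.809 CPM in KO DOX (-3.61, 0.0833).

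Genes of the contractile apparatus and of heart stress did not pass the test. Of 25 tested cardiac stress and fetal genes, 8 had an unadjusted p below 0.05 and DESeq2 called 1. Myh7, the fetal myosin re-expressed in stressed hearts, stood at 761.1, 2708.5 and 1330.4 CPM in KO DOX and 2531, 5062 and 8073 CPM in WT DOX. The groups overlapped, since KO DOX mouse 19 was above WT DOX mouse 21, and the log2 fold change was -1.71 with an adjusted p of 0.222. The vehicle libraries of both genotypes were at 70.5 to 240 CPM, below every DOX library. The natriuretic peptide genes Nppa, at 498, 253 and 213 CPM in KO DOX and 60.2, 142 and 196 CPM in WT DOX, and Nppb, at 83.8, 198 and 193 CPM and 144, 154 and 154 CPM, had log2 fold changes of 1.27 (0.572) and 0.07 (0.951). Nppa is an atrial transcript, and KO DOX mouse 18, the highest in Nppa, was also the highest in the atrial list. Acta1, a skeletal actin of the fetal program, was at 1.10 (0.550), Ankrd1, a strain sensor gene, at -0.54 (0.532), and the strain-responsive Xirp1 at -0.75 (0.218). Of 31 tested sarcomere and Z-disc genes none was called (median -0.01), 8 had an unadjusted p below 0.05 and DESeq2 called 4. Nearest was Tcap, the titin cap, at 1199, 1306 and 1314 CPM in KO DOX and 924, 682 and 666 CPM in WT DOX (0.75, 0.0742). Lmod3, an actin filament nucleator of muscle, followed at 0.73 (0.0957).

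Calcium handling and ion channel genes had mostly positive fold changes and no call. At an unadjusted p below 0.05 there were 9, and DESeq2 called 1. Of 38 tested members, 30 had a log2 fold change above 0, as did 7718 of all 14757 genes. The median was 0.24, and 10 had every KO library above every WT library, against 9.86% of all genes. Without KO DOX mouse 18, or without WT DOX mouse 24, the median was 0.135. Kcnh2, the rapid repolarising potassium channel, stood at 98.2, 83.4 and 81.9 CPM in KO DOX and 60.1, 61.3 and 72.6 CPM in WT DOX (0.44, 0.0881), and under vehicle it was called higher in KO (0.77, 0.00424). The calcium pump Atp2a2 and the release channel Ryr2 had log2 fold changes of 0.28 (0.430) and 0.22 (0.559), with overlapping groups.

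Energy metabolism genes had no called member. Among nuclear OXPHOS subunits, mitochondrially encoded genes and fatty acid oxidation genes, 1, 1 and 13 had an unadjusted p below 0.05, and DESeq2 called 1, 0 and 3. Among mitochondrial biogenesis genes (33 tested) and glycolysis and insulin signalling genes (36 tested), 9 and 3 did, and DESeq2 called 3 and 1. Nuclear OXPHOS subunits (82 tested) had a median of 0.04 under DOX, or -0.02 without WT DOX mouse 24 and 0.15 without WT DOX mouse 21, and of -0.46 under vehicle. Cox7a1, the muscle form of a cytochrome oxidase subunit, was at 385, 432 and 455 CPM in KO DOX, 459 CPM in WT DOX mouse 21 and 236 and 198 CPM in mice 22 and 24 (0.51, 0.425). Mitochondrially encoded genes (10 tested) had a median of 0.15, or 0.03 without WT DOX mouse 24 and 0.26 without WT DOX mouse 21, and their share of all counts was 27.2% to 29.5% in KO DOX and 24.4% to 30.2% in WT DOX. Fatty acid oxidation and PPAR targets (43 tested) had a median of -0.23, which was -0.04 without WT DOX mouse 22; Acot1, a fatty acid thioesterase gene, stood at 6.59 to 7.87 CPM in KO DOX and 11.2, 75.0 and 19.4 CPM in WT DOX (-2.29, 0.120). Irs2, an insulin signalling adaptor, was at 8.79 to 10.8 CPM in KO DOX and 21.4, 161 and 45.2 CPM in WT DOX (-2.97, 0.0849). In both of these genes WT DOX mouse 22 was the highest. Ppargc1a, the coactivator of mitochondrial biogenesis, was at 114, 130 and 114 CPM in KO DOX and 181, 192 and 232 CPM in WT DOX (-0.76, 0.0854). Nnt, the mitochondrial transhydrogenase that is known to be defective in C57BL/6J mice, was at 632 to 819 CPM in KO DOX and 582 to 603 CPM in WT DOX (0.30, 0.339), and under vehicle at 994 to 1223 CPM in KO and 352 to 515 CPM in WT (1.38, 0.000683).

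Cytosolic ribosomal protein genes separated the 2 groups in small steps. For 72 of 78 tested members every KO DOX library was below every WT DOX library, against 9.75% of all genes. The median log2 fold change was -0.27, and it lay between -0.31 and -0.22 in all fits run. Their summed level was 9279, 8477.2 and 8968.4 CPM in KO DOX and 10865, 10860 and 10734 CPM in WT DOX. No member passed the test, 18 had an unadjusted p below 0.05 and DESeq2 called 1. Nearest were Rpl3, at 116, 79.4 and 95.3 CPM in KO DOX and 116, 176 and 217 CPM in WT DOX (-0.81, 0.161), and Rpl12 (-0.52, 0.163). The median under vehicle was -0.57, with 13 members called lower, against 1.40% of all genes, and none higher, against 2.18%. Members of 1 list in 1 library share that library's composition, so the 72 are not separate observations. Mitochondrial ribosomal protein genes (77 tested) had a median of 0.11, or 0.02 without WT DOX mouse 22 and 0.23 without WT DOX mouse 21, and no call, with 11 at an unadjusted p below 0.05 and 0 called by DESeq2.

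Lists for other cell types of the heart had no called member. At an unadjusted p below 0.05 they had at most 9 members each, and DESeq2 called 0 to 6. Fibroblast markers (25 tested) had a median of 0.44, atrial and conduction transcripts (18) of 0.82 and mesothelial and lymphatic transcripts (17) of 0.95. Without KO DOX mouse 18 these medians were 0.02, -0.02 and 0.03. The summed fibroblast level was 4313.3 CPM in KO DOX mouse 18 and 2395.3 to 2798.8 CPM in the other 5 libraries. Collagen and matrix genes (44 tested) had a median of 0.18, which was -0.12 without KO DOX mouse 18 and 0.41 without KO DOX mouse 19, with Col1a1 at 98.7, 29.6 and 48.4 CPM in KO DOX and 61.6, 44.6 and 24.2 CPM in WT DOX (0.44, 0.705), and Postn, a fibroblast activation gene, at 70.4, 15.8 and 24 CPM and 29.4, 15.6 and 8.06 CPM (1.06, 0.506). In both, KO DOX mouse 18 was the highest of the 6. Adipocyte transcripts (21 tested) had a median of 0.94, or 0.31 without KO DOX mouse 18. Endothelial markers (32) were at 0.06, or -0.04 without WT DOX mouse 24, and pericyte and smooth muscle markers (21) at 0.30. Aplnr, an endothelial receptor gene, was at 10.8, 9.37 and 15.1 CPM in KO DOX and 7.01, 1.53 and 1.32 CPM in WT DOX (1.85, 0.143). Erythroid transcripts (10 tested) had a median of 4.31, or 2.90 without KO DOX mouse 19, and DESeq2 called 6 of them. With the 6 DOX libraries fitted alone the median was 0.04, but the filter ran anew there and the members tested could differ. Hemoglobin genes held 13, 5478 and 1497 counts in KO DOX, 6, 1 and 2 counts in WT DOX and 1057 to 6310 counts in the vehicle libraries. KO DOX mouse 18 was thus with the WT DOX libraries, and the part of blood left in the hearts was not tested.

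**Figure D4:**
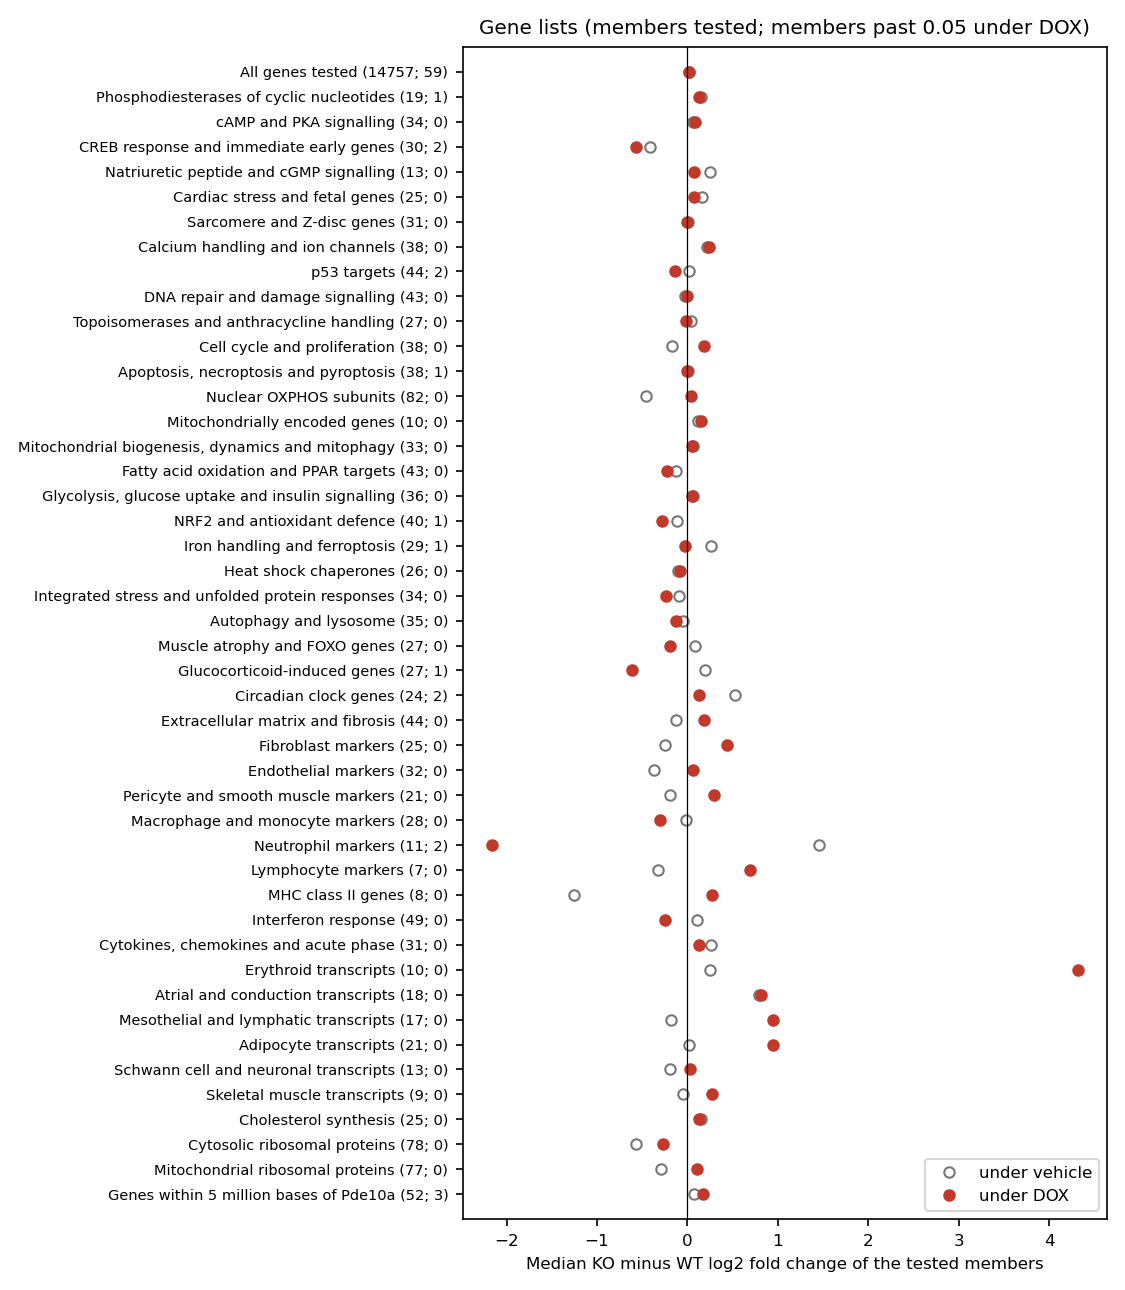
Median log2 fold change of KO against WT over the tested members of each gene list, under DOX (filled) and under vehicle (open); numbers in parentheses give the members tested and the members called under DOX. Neutrophil markers lie lowest under DOX at -2.16 and erythroid transcripts highest at 4.31; edgeR called none of the latter and DESeq2 called 6.

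The other called genes with the highest or lowest fold changes, counted where the mean log2 CPM reached 1, belong to varied groups. Wdfy1, an adaptor of endosomes and Toll-like receptors, was higher in KO DOX, at 23.7, 26.1 and 25.0 CPM against 9.81, 9.54 and 10.9 CPM (1.30 ± 0.11 SE, adjusted p 0.000151), and by a similar amount under vehicle (1.5, 3.25e-05). Gstt2, a glutathione transferase gene, stood at 9.45, 11.0 and 11.4 CPM in KO DOX and 6.04, 4.66 and 4.58 CPM in WT DOX (1.06 ± 0.13 SE, 0.00415). Under vehicle both genotypes were at 9.36 to 11.3 CPM, so the WT DOX libraries were the low ones. Sybu, a microtubule linker gene, was also higher, at 6.62, 7.68 and 7.75 against 4.03, 3.46 and 2.27 CPM (1.18, 0.0245), as did the sulfotransferase-like Wscd1 (0.78, 0.0475) and Rasl12, a small GTPase gene (0.74, 0.0352). Without WT DOX mouse 22 the adjusted p was 0.202 for Wscd1 and 0.154 for Rasl12. Among lower genes were Ell2, at 13.4, 14.9 and 15.1 CPM in KO DOX against 37.1, 46.5 and 22.3 CPM in WT DOX (-1.28, 0.0352), Ifrd1, a stress-induced transcriptional regulator (-1.20, 0.0352), and Resf1, a regulator of silenced repeats (-1.30, 0.0352). Without KO DOX mouse 20 or 19, the call was lost for Ell2 (adjusted p 0.159 without 20), Ifrd1 (0.124 without 19) and Resf1 (0.177 without 20). Of the 59 called genes, 8 carry clone-type or pseudogene names. Gm36684, the third by p, had 152 counts in the KO DOX libraries and 1 in the WT DOX libraries, a ratio of 174 with an exact 95% counting interval of 30.7 to 6910.

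The vehicle comparison, which shares no library with the DOX comparison, called 529 genes (3.58%), of which 322 (2.18%) were higher and 207 (1.40%) lower in KO, and 20 genes were called in both. These are 33.9% of the genes called under DOX and 3.78% of those called under vehicle. Of the 20, 14 were higher and 5 lower in KO in both treatments. The exception was Ttpal, named for that reason after its values were seen, which was lower in KO under DOX (-0.53, adjusted p 0.0389) and higher under vehicle (0.44, 0.0393). Across all 14757 genes the Pearson correlation of the 2 sets of log2 fold changes was 0.245 and the Spearman correlation 0.139, over genes that are not independent. Of the 59 genes, 44 had the same sign under vehicle.

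**Figure D5:**
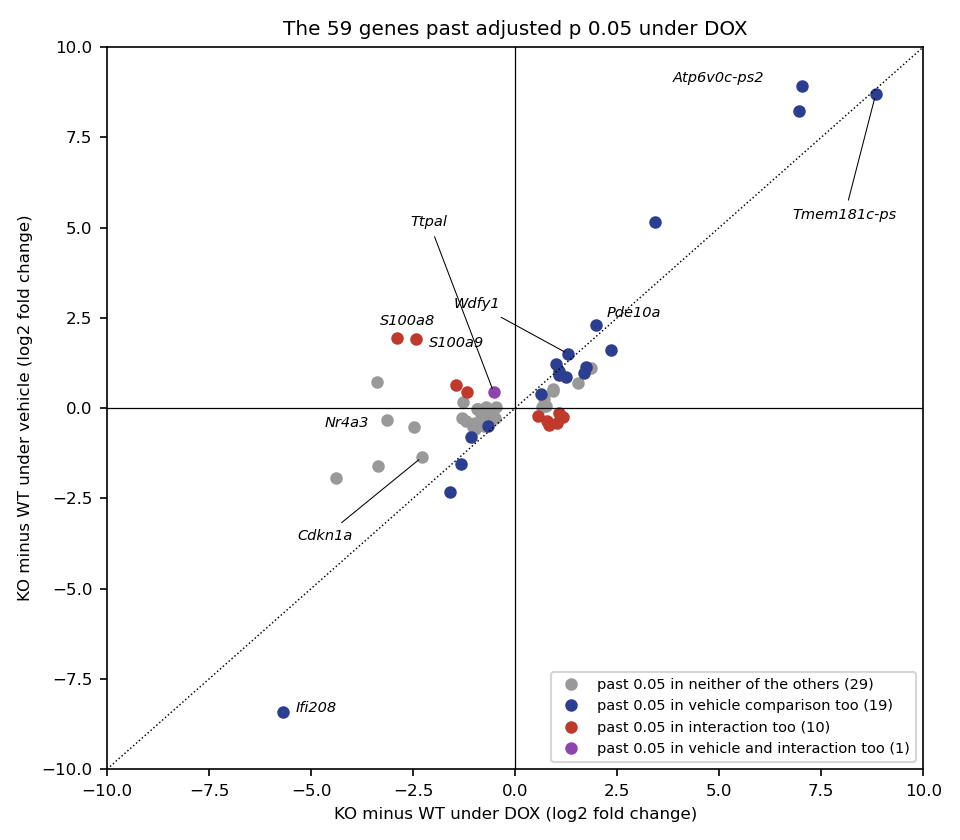
Fitted log2 fold change of KO against WT under DOX (horizontal) and under vehicle (vertical) for the 59 genes called under DOX, coloured by whether they were also called under vehicle or in the interaction; the dotted line marks equal values. Of the 59, 19 were called under vehicle alone besides DOX, 10 in the interaction alone, 1 (Ttpal) in both and 29 in neither.

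The interaction, the genotype difference under DOX less that under vehicle, called 47 genes (0.318%), of which 25 were above 0 and 22 below. Of the 59 genes, 11 were among them. The effect of DOX within each genotype shares libraries with the comparison made here, so its values are set beside it as a description. Of the 32 genes lower in KO DOX, 29 had a higher mean in WT DOX than in WT vehicle, and 22 of these were called for that change. Of the 27 genes higher in KO DOX, 20 had a lower mean in WT DOX than in WT vehicle, and 11 were called for it. The 32 and the 27 were chosen by their distance from the same WT DOX libraries, so these counts follow in part from that choice. Over all genes tested the median log2 fold change of WT DOX against WT vehicle was -2.3e-05. Calls over all genes were not split by direction. DOX against vehicle called 2 genes of 14757 in KO (0.0136%) and 2730 in WT (18.5%). These counts were not run under the alternative fits, and a count of calls does not measure the size of a response. Myh7, which was not called in KO, was higher in every KO DOX library than in every vehicle library. The 2 genes called in KO, neither of them among the 59, were the magnesium transporter gene Slc41a3 and the T cell costimulator gene Icosl, which had log2 fold changes of -0.37 (adjusted p 0.291) and -0.09 (0.812) in KO DOX against WT DOX.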

How the data were processed

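Messenger RNA libraries from 12 mouse hearts, 3 in each of 4 groups, were analysed from raw read counts for each gene symbol, which the authors deposited as separate files. The submitters' processing notes name featureCounts, Subread 1.6.4, STAR 2.7.0f and fastp 0.20.0. The sources used here do not give the genome build, annotation, strand setting or treatment of multiply matching reads. Per the labels' protocols a stranded mRNA kit was used. Positions came from GENCODE M21 by symbol (98.3% of symbols matched).

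Groups were taken from titles and genotype and treatment labels. In R 4.3.3, edgeR 4.0.16 kept 14757 genes (filterByExpr by group, minimum count 10), scaled them with TMM factors and fitted all 12 libraries with 1 mean per group and a robust quasi-likelihood fit, since 3 libraries against 3 leave few degrees of freedom. Adjusted p-values are Benjamini-Hochberg over all genes tested, with a threshold of 0.05. Each standard error is the absolute fold change over the square root of F. CPM values, fold changes and adjusted p-values were computed from the counts. The biological coefficient of variation was 17.5%. The p-values measure the spread between mice. Where a group held no count, the fold was bounded with 3 counts in each library; this and the exact intervals cover counting error only. The test was checked on simulated counts with known changes. Those counts were drawn around a shared mean of each gene, with no library set apart. The check therefore cannot show how calls behave where single libraries stand apart.

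The named genes were Pde10a and 38 genes of a written list, the 12 highest and 12 lowest called log2 fold changes with no overlap whose mean log2 CPM reached 1, up to 4 called members per list and direction (or the 2 of smallest p where none was called), called genes within 5 Mb of Pde10a, and 5 called clone-type names. Some are given by count alone, and 1 is not reported here. The comparison, the genes and the 45 gene lists were chosen with earlier results of these data known. Lists are described by counts and medians, with no test. Each alternative fit ran its filter anew, so the members tested can differ between fits.

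Alternatives were DESeq2's size factors, no scaling, mitochondrially encoded genes left out, a filter of 1 CPM in 3 libraries, no filter, limma-voom with quality weights (limma 3.58.1), DESeq2 1.42.0, the groups compared alone, the title suffix as a covariate, an adjusted p of 0.1 and leaving out each library. A fit without the robust prior, a fit without KO DOX mouse 18 and a KO vehicle mouse, both high in atrial transcripts, and a fit without KO DOX mice 19 and 20 were added after seeing the data. Xist did not exceed 0.252 CPM in any library.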

Additional observations from a re-analysis of the deposited data

Results flagged for a closer look

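In 14 of the genes reported, the genotype difference under DOX differed from that under vehicle in edgeR's test of the interaction. Values are the log2 difference of KO against WT under DOX less that under vehicle.

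The neutrophil granule genes S100a8 (-4.84) and S100a9 (-4.35), the cytokine receptor gene Il4ra (-1.62), the interferon-induced Ifitm1 (-2.08) and Ttpal (-0.962) had negative values and were called lower in KO under DOX. Gstt2 (1.20), Il16 (1.43), Flt3l (1.30), Sybu (1.43), Wscd1 (1.14) and the cytoskeletal regulator Cdc42ep3 (0.779) had positive values and were called higher in KO under DOX. The adjusted p of these 11 lay between 0.0274 and 0.0487.

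The other 3 were not called under DOX but were called higher in KO under vehicle. The hypoxia-inducible factor gene Hif3a had an interaction of -3.11 (adjusted p 0.0274), with a genotype difference of 1.78 under vehicle and -1.33 under DOX. Ifi205, an interferon-inducible gene, had -1.84 (0.0274), and Nnt had -1.08 (0.0487). The number of genes called in the interaction, 47 in the reported fit, ran from 2 to 544 when 1 library was left out. It was 2 or 3 without any 1 KO vehicle library or WT vehicle mouse 3. Without KO DOX mouse 19 or 20 it was 7 or 4, and without WT DOX mouse 22 or 24 it was 4 or 12. Without WT vehicle mouse 2 it was 21. It rose to 69, 544 and 50 without KO DOX mouse 18, WT DOX mouse 21 and WT vehicle mouse 1.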

How the results depend on the processing

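No paired analysis was possible because the mouse numbers differ between the groups. Among the fits of all 12 libraries, the 59 genes called in KO DOX against WT DOX became 473 with DESeq2, 990 with limma-voom and 1152 with no filter; the vehicle comparison's 529 became 1682, 5186 and 2088, the interaction's 47 became 373, 2048 and 1093, and the 12 called list members became 94, 170 and 281. With the groups compared alone the counts were 6 under DOX, 220 under vehicle and 1 list member. The title suffix as a covariate gave 215 under vehicle, and under DOX it turned 27 higher and 32 lower into 34 and 23, with 17 of the 59 calls lost. An adjusted p of 0.1 gave 248 genes and 49 list members, and a fit without the robust prior gave 31 genes in the interaction. Without KO DOX mouse 18 and a KO vehicle mouse, both high in atrial transcripts, the counts were 17 under DOX, 70 under vehicle, 4 in the interaction and 2 list members, and Pde10a had a log2 fold change of 2.01 that missed the threshold (adjusted p 0.0601). Without KO DOX mice 19 and 20 they were 24, 152, 0 and 5, and Pde10a had 1.90 (adjusted p 0.171). Leaving out 1 library at a time gave 8 to 732 genes under DOX, 42 to 2673 under vehicle, 2 to 544 in the interaction and 0 to 143 list members, with Pde10a between 1.85 and 2.16. The causes of these shifts were not tested, except that the smaller fits hold fewer libraries. Other scalings, the 1 CPM filter and mitochondrial genes left out kept the DOX count within 1.5 times of 59, at 49 to 62. No called gene changed direction under any of these alternatives. With 3 mice per group, a p that misses the threshold does not show that values did not differ.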

Other observations

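Atp6v0c, a proton pump subunit gene on chromosome 17, and its processed pseudogene Atp6v0c-ps2 on chromosome 6 differed between the genotypes in opposite directions, and the KO DOX mice were split. Atp6v0c-ps2 stood at 21.4, 11.9 and 12.2 CPM in KO DOX mice 18, 19 and 20, at 19.9 to 23.5 CPM in KO vehicle and at or below 0.144 CPM in every WT library. Atp6v0c, which did not pass the test under DOX (log2 fold change -1.42, adjusted p 0.139), stood at 5.71, 23.4 and 24.9 CPM in the same KO DOX mice, at 6.06 to 7.51 CPM in KO vehicle and at 33.8 to 52.1 CPM in WT. The gene and its pseudogene summed were at 27.1, 35.2 and 37.1 CPM in KO DOX and 46.9, 45.5 and 52.2 CPM in WT DOX. Under vehicle the sums were 27.4, 31.1 and 26 CPM in KO and 40.2, 33.9 and 39 CPM in WT. Gm9825 was at 6.07, 3.22 and 2.62 CPM in KO DOX, 5.50 to 6.12 CPM in KO vehicle and at or below 0.400 CPM in WT. In all 3 genes KO DOX mouse 18 lay with or next to the KO vehicle libraries, and KO DOX mice 19 and 20 lay between those and the WT libraries. These 3 genes were set side by side after their values were seen, reads of the gene and its pseudogene may be split between them, and the cause was not tested.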
